A study of Homo sapiens with 9 samples.

Results

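The comparison described here set RNA of SKOV3 cells expressing WT CDK9 and treated with an ALK inhibitor for 24 h against RNA of untreated SKOV3 cells expressing WT CDK9. The members were the libraries labelled for these groups, 6 of the 9 libraries of the series, with 3 libraries per group. The remaining 3 libraries came from untreated SKOV3 cells expressing Tyr19Phe CDK9, and entered the fit to help estimate the spread. SKOV3 is an established ovarian cancer line. CDK9 is the kinase of P-TEFb, the complex that releases paused RNA polymerase II, and ALK is a receptor tyrosine kinase. The study made stable lines that re-express CDK9 after knockdown of the endogenous gene, and the sources used here do not say whether these were the sequenced cells, how many clones they hold, which ALK inhibitor and dose were used, or whether the untreated cells received its solvent. Nothing says that the libraries of a group came from separate cultures, so the p-values measure only the spread between these libraries, which may be technical.

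A kinase inhibitor given for a day can reach gene expression through the transcription factors that its targets govern, among other routes. In attached epithelial cancer cells, such outputs include the immediate early and feedback genes of the MAPK pathway, the actin-regulated SRF genes, the YAP and TAZ genes of the Hippo pathway, and the genes for integrins and proteases through which a cell holds and remodels its matrix. Growth signals also set the supply of ribosomes, amino acids and lipids. The 87 gene lists used here cover these programmes, the cell cycle and large gene families.

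The WT CDK9 libraries held 18939449 to 19731228 counts and the ALK inhibitor libraries 18169050 to 20974903. ALK inhibitor replicate 2 stood apart, with 19944 genes at 1 count or more, where the other treated libraries had 21911 and 21915. Levels are given as CPM, counts per 1000000 counts of the library, with edgeR's TMM factors applied. A floor of 3 counts was between 0.143 and 0.165 CPM in these libraries, counting error only. The cells carried the markers of the line: ERBB2, KRT7, KRT8, KRT19 and PAX8 had between 4475 and 55135 counts, and CDKN2A had 0 or 1. The 8 leukocyte markers had between 0 and 7 counts, and the fibroblast genes COL3A1 and DCN between 0 and 3, although COL1A1 had between 1943 and 2714. CDK9 (ENSG00000136807) had 48.4, 49.7 and 47.6 CPM in WT CDK9 cells and 43.8, 47.3 and 45.7 CPM with the inhibitor, which gave a log2 fold change of -0.09 ± 0.08 (SE) and an adjusted p of 0.665 by edgeR's quasi-likelihood test. ALK itself had between 0 and 5 counts in each of these libraries and was not tested, too few to detect a change.

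Of 16350 tested genes, 297 (1.82%) were called higher and 447 (2.73%) lower with the ALK inhibitor at a Benjamini-Hochberg adjusted p under 0.05. The changes were small. In each direction, the called genes differed by a median of 0.33 on the log2 scale, 214 of those higher and 333 of those lower changed by less than 0.5, and 12 and 27 by 1 or more. Nearly all were protein-coding, 292 of the genes called higher and 419 of those called lower. The calls followed the level of the gene: none of the 2300 genes under 1 CPM was called higher and 6 were called lower, against 122 and 214 of the 2434 genes over 100 CPM, where counts are large enough to resolve small changes. The shares over 100 CPM were 5.01% and 8.79%. The gene lists below were not matched for level. A list of strongly expressed genes could pass the shares of all tested genes by level alone, which was not tested. The split between directions depended on the scaling. With libraries scaled by their totals alone, 406 genes were called higher and 344 lower, and the median of all tested genes moved from -0.00 to 0.02 on the log2 scale. Without WT CDK9 replicate 1, 198 genes were called higher and 293 lower.

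**Figure D1:**
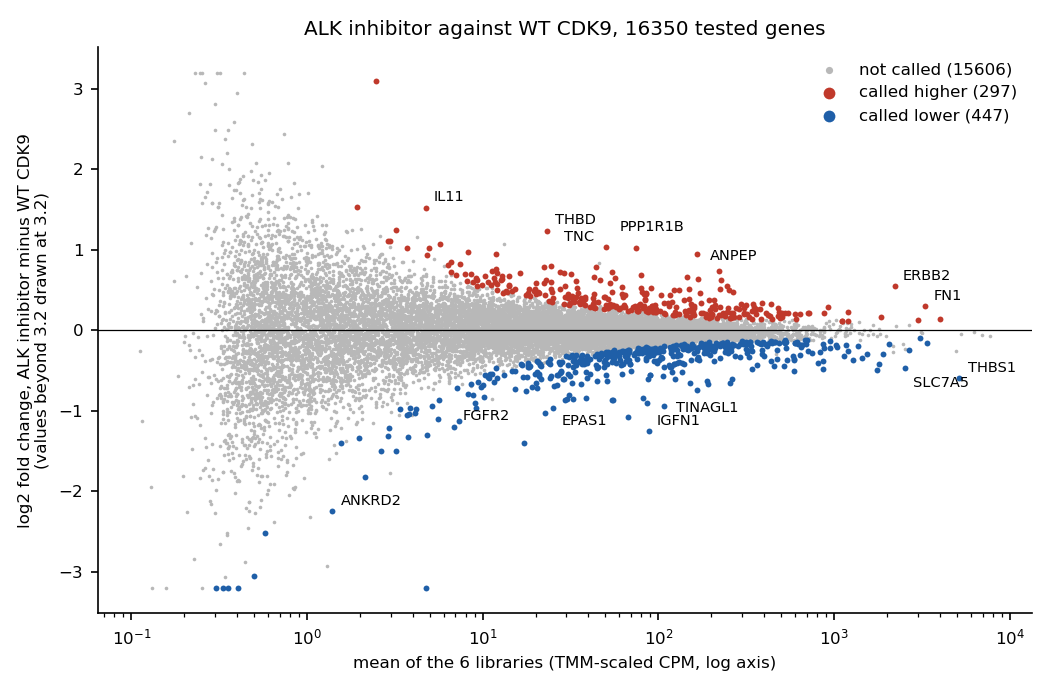
Log2 fold change (ALK inhibitor minus WT CDK9) against the mean CPM of the 6 libraries on a log axis, with 1 point per tested gene. The 297 genes called higher and 447 called lower lie mostly within 0.5 of 0, and the genes beyond 2 on either side have a mean under 5 CPM.

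The genes with the smallest adjusted p among those higher belong to different families. ERBB2 (ENSG00000141736, chromosome 17 from 39687914 to 39730426), the receptor tyrosine kinase that SKOV3 cells carry at high level, had 1773, 1768 and 1858 CPM in WT CDK9 cells and 2617, 2624 and 2634 CPM with the inhibitor. All 3 treated libraries lay above the untreated ones, a log2 fold change of 0.54 ± 0.03 (SE, adjusted p = 2.96e-13 by edgeR). PPP1R1B, which encodes a phosphatase inhibitor, rose from 49.3 ± 4.53 to 101 ± 1.12 CPM (SD, n = 3). TUBA1A, an alpha-tubulin, had 164, 145 and 187 CPM and then 269, 273 and 286 CPM, although reads of near-identical tubulin genes may have been split between them. GNG11, a G-protein gamma subunit, TFPI2, an inhibitor of serine proteases, AKAP12, an anchor of protein kinase A, and MECOM, a zinc finger transcription factor, had log2 fold changes of 0.64, 0.62, 0.51 and 0.52. Among the genes lower, IGFN1 had 133, 110 and 128 CPM in WT CDK9 cells and 46.4, 55.8 and 54.1 CPM with the inhibitor (log2 fold change -1.25 ± 0.08 SE, adjusted p = 4.89e-13 by edgeR). SNAPC1, a subunit of the complex that starts small nuclear RNA transcription, fell from 207 ± 9.20 to 124 ± 7.95 CPM (SD, n = 3). ZBED2, GFRA1, the co-receptor for GDNF, and PYGL, the liver form of glycogen phosphorylase, had log2 fold changes of -0.90, -0.66 and -0.66. Every gene of this paragraph was called in each of the 6 fits that left out 1 library. Unless libraries are named beside it, the same holds for each gene given as called in the Results text below, captions apart.

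**Figure D2:**
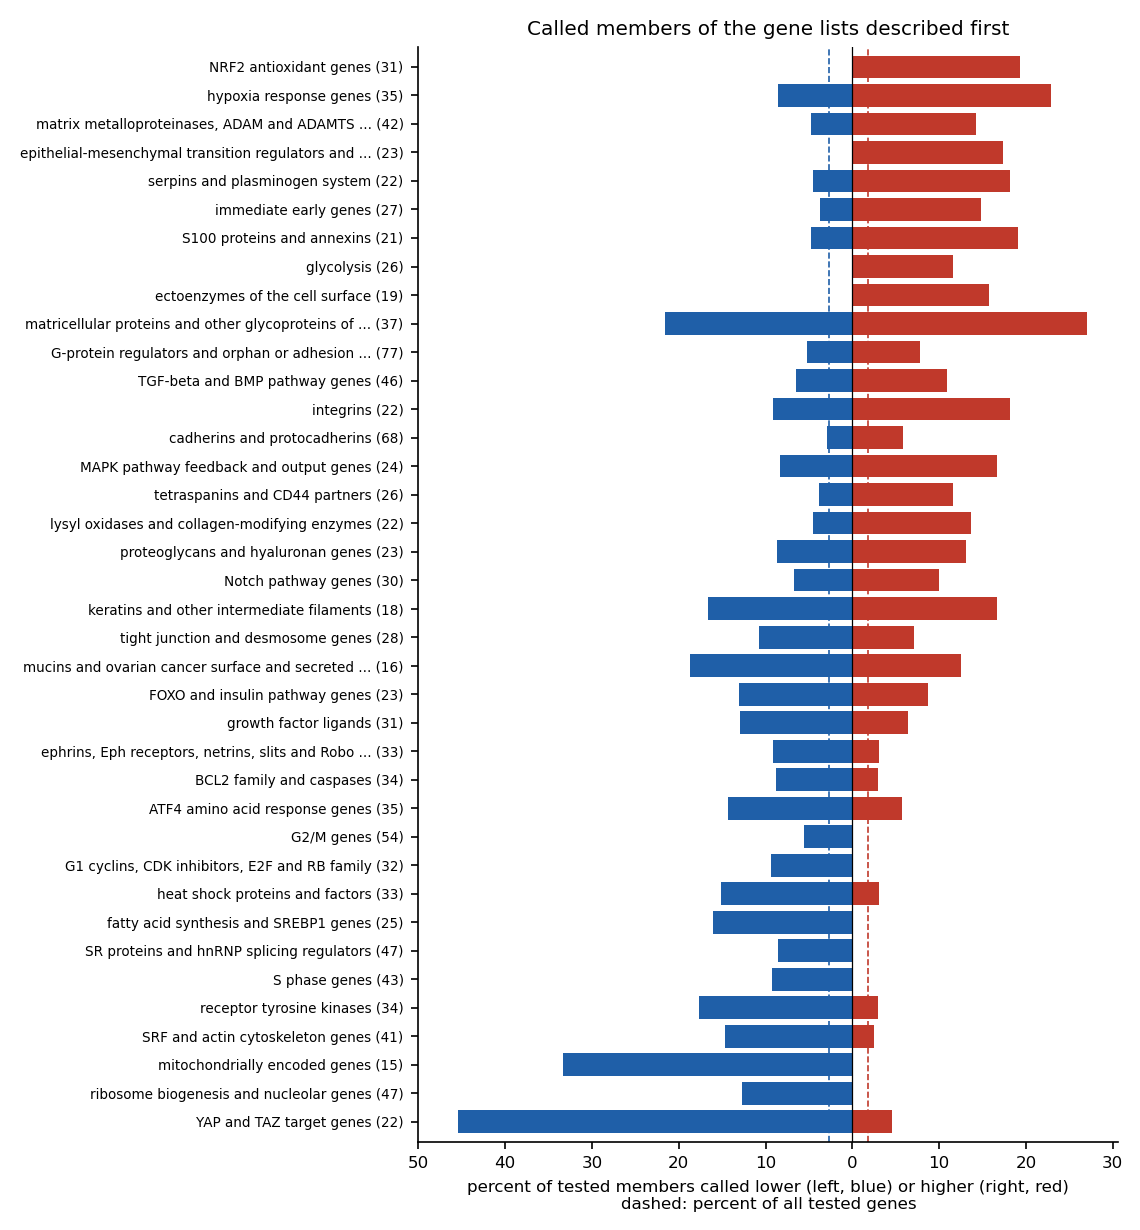
Percent of the tested members (number in parentheses) called higher (right) or lower (left), for the reported gene lists with at least 3 called members in 1 direction and at least 2 times the share of all tested genes, which the dashed lines mark at 1.82% and 2.73%. Some lists are not shown. The lists were not matched to all tested genes in level, which the calls followed. Of those drawn, target genes of YAP and TAZ reach furthest to the left, with 10 of 22 called lower, and 10 of 37 matricellular proteins were called higher.

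Target genes of YAP and TAZ, the co-activators that TEAD factors bring to DNA when the Hippo pathway is off, were lower. Of 22 tested members, 10 were called lower and 1 higher, 21 had a log2 fold change below 0, and the median was -0.28, against -0.00 over all tested genes. The list was written with earlier results on these genes known. The count of members lower ranged from 10 to 12 with 1 library left out. AMOTL2 (ENSG00000114019), an angiomotin that feeds back on the pathway, had 313, 324 and 311 CPM in WT CDK9 cells and 215, 203 and 206 CPM with the inhibitor, with no overlap between the groups (log2 fold change -0.60 ± 0.04 SE, adjusted p = 5.73e-12 by edgeR). CYR61 and CTGF, matricellular proteins also named CCN1 and CCN2, fell from 697 ± 52.7 to 492 ± 14.8 CPM and from 644 ± 39.8 to 517 ± 35.6 CPM (SD, n = 3), with log2 fold changes of -0.50 and -0.32. IGFBP3, which binds insulin-like growth factors, CRIM1, a cell surface protein that binds BMPs, and AXL, a receptor tyrosine kinase, had log2 fold changes of -0.49, -0.37 and -0.27. F3, the gene of tissue factor, had -0.22. The member called higher was NT5E, the ectonucleotidase CD73, which had 104, 99.2 and 100 CPM in WT CDK9 cells and 150, 139 and 140 CPM with the inhibitor. Other members lay close to 0, among them MYOF and PTPN14 with log2 fold changes of -0.01 and -0.03.

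The letters GGAATG, or CATTCC on the other strand, are the core of the sequence that TEAD factors bind. Within the 250 bases before the transcription start, 6 of the 16 members of the list with a promoter in the RefSeq table (GRCh38.p14) held these letters, 37.5%, against 9.28% of the 11477 tested genes with one and 11.9% of all 27305 promoters of that length. The list gathers target genes of the co-activators that TEAD factors bring to DNA. Its share is therefore a trait of the list and not a result of the treatment. Motifs of AP-1, E2F and the antioxidant response element were also searched. For GGAATG, the shares were 11% of the 326 matched genes called lower and 6.84% of the 234 called higher. Of the 6, ANKRD1 and CTGF were called lower, and NUAK2, TGFB2, FOXF2 and PTPN14 were not called (log2 fold changes -0.44, -0.38, -0.07 and -0.03). The stretches of ANKRD1 (chr10:90921186-90921327, minus strand) and CTGF (chr6:131951438-131951561, minus strand) are shown because these are the called members that hold the letters, which are in capitals. ANKRD1, an ankyrin repeat protein induced by stretch, was singled out after its values were seen: it had 23.9, 24.7 and 23.6 CPM in WT CDK9 cells and 18.0, 16.4 and 15.8 CPM with the inhibitor (log2 fold change -0.52 ± 0.10 SE, adjusted p = 9.71e-04 by edgeR).
ANKRD1: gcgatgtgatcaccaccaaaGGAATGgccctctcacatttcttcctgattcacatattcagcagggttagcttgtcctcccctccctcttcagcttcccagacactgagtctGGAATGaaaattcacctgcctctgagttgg
CTGF: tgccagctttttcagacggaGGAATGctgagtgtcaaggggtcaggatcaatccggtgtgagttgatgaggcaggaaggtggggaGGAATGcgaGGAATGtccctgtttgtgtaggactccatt

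**Figure D3:**
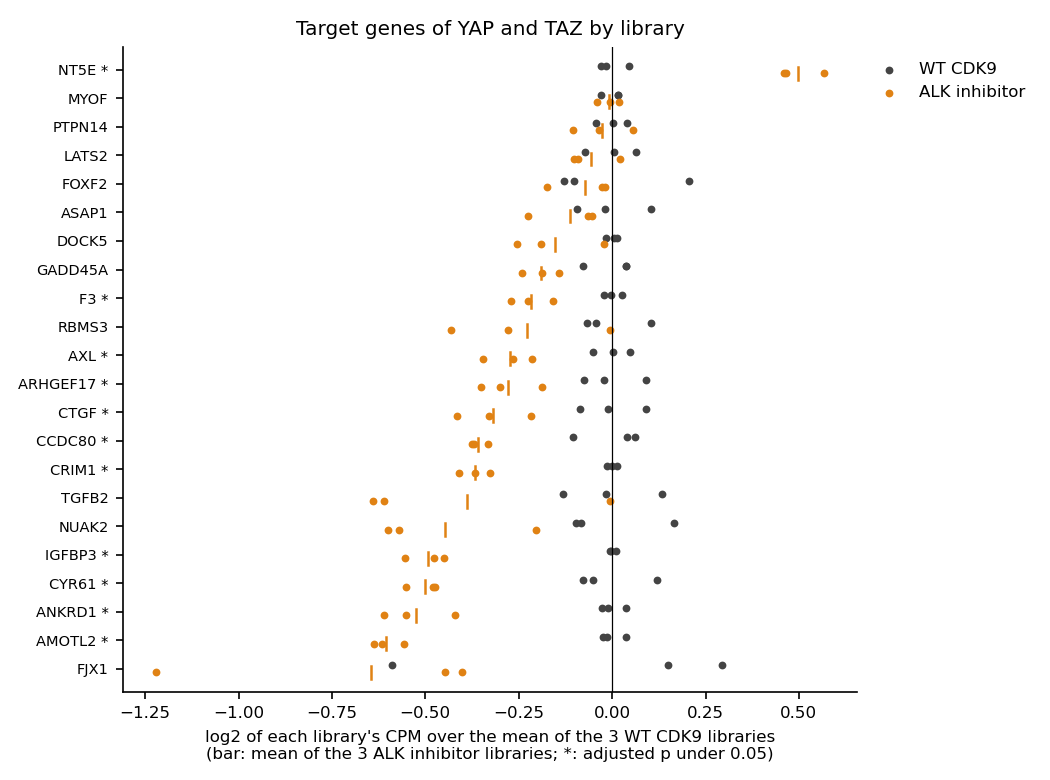
Log2 of the CPM of each library over the mean of the WT CDK9 libraries for the 22 target genes of YAP and TAZ, in order of their fold change, with untreated libraries in grey and treated libraries in orange. All 3 treated libraries lie below the untreated ones for AMOTL2, CYR61, CTGF, IGFBP3, CRIM1 and AXL, and above them for NT5E.

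Genes of the matrix moved in both directions. Of 37 tested matricellular proteins and matrix glycoproteins, 10 were called higher and 8 lower. Without WT CDK9 replicate 2 or without ALK inhibitor replicate 1, 6 were called higher. TNC (ENSG00000041982), the gene of tenascin C, an anti-adhesive matrix protein, had 33.8, 33.3 and 32.4 CPM in WT CDK9 cells and between 60.7 and 74.4 CPM with the inhibitor, with no overlap between the groups (log2 fold change 1.03 ± 0.09 SE, adjusted p = 3.77e-10 by edgeR). FN1, the gene of fibronectin, rose from 2947 ± 155 to 3625 ± 137 CPM (SD, n = 3). TGFBI, SPP1, which encodes osteopontin, and NID2, a basement membrane nidogen, had log2 fold changes of 0.29, 0.48 and 0.27. On the other side, THBS1, the gene of thrombospondin 1, fell from 6212 ± 101 to 4100 ± 231 CPM (SD, n = 3). TINAGL1, a secreted protein that binds laminin and integrins, had 146, 147 and 129 CPM in WT CDK9 cells and 73.7, 74.0 and 72.9 CPM with the inhibitor, which left less spread among the treated libraries than among the untreated ones. FSTL1, a follistatin-like glycoprotein, had a log2 fold change of -0.42.

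The integrins, the receptors to which these proteins attach, were divided by subunit. Of 22 integrin genes, 4 were called higher and 2 lower, the same numbers in each fit without 1 library. Those higher were ITGA5, the fibronectin receptor's alpha subunit (88.0 ± 1.97 to 119 ± 9.32 CPM, SD, n = 3), ITGA6, ITGA3 and the shared subunit ITGB1, with log2 fold changes of 0.44, 0.28, 0.17 and 0.13. Those lower were ITGB4, the partner of ITGA6 in hemidesmosomes, with 127, 134 and 122 CPM in WT CDK9 cells and 80.3, 81.9 and 96.3 CPM with the inhibitor, and ITGB8, with 191, 176 and 185 CPM and then 116, 117 and 119 CPM. Of the laminins, LAMA3 and LAMB1 had log2 fold changes of 0.28 each, and LAMA5 had -0.38. The proteoglycans SDC1 and SDC2, both syndecans, moved apart, with log2 fold changes of 0.29 and -0.48.

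Among 42 tested metalloproteinases, ADAM and ADAMTS proteases and their inhibitors, 6 were called higher and 2 lower, again in every fit without 1 library. MMP1, the interstitial collagenase, had 36.0, 36.6 and 36.9 CPM in WT CDK9 cells and 58.0, 59.0 and 51.7 CPM with the inhibitor. MMP10, a stromelysin, went from 5.13, 2.80 and 3.21 CPM to 7.74, 7.08 and 8.53 CPM, a log2 fold change of 1.07 ± 0.22 (SE, adjusted p = 0.00239 by edgeR). MMP2, ADAM12, ADAM19 and the inhibitor TIMP1 had log2 fold changes of 0.41, 0.52, 0.69 and 0.30, so both proteases and an inhibitor rose. ADAMTS1 and ADAMTS15 had -0.24 and -0.40. Of the collagen-modifying enzymes, 3 of 22 were called higher and 1 lower. TGM2, the tissue transglutaminase, and PLOD1, a lysyl hydroxylase, had log2 fold changes of 0.53 and 0.20, and the lysyl oxidase LOXL4 had -0.90. In the serpin and plasminogen list, 4 of 22 were called higher and 1 lower. THBD, the gene of thrombomodulin, a cell surface brake on coagulation, had 11.5, 15.8 and 14.3 CPM in WT CDK9 cells and 29.4, 34.7 and 33.9 CPM with the inhibitor (log2 fold change 1.24 ± 0.12 SE, adjusted p = 7.60e-09 by edgeR). TFPI2 of this list, given above, was also higher, and F3, which starts coagulation, was lower.

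**Figure D4:**
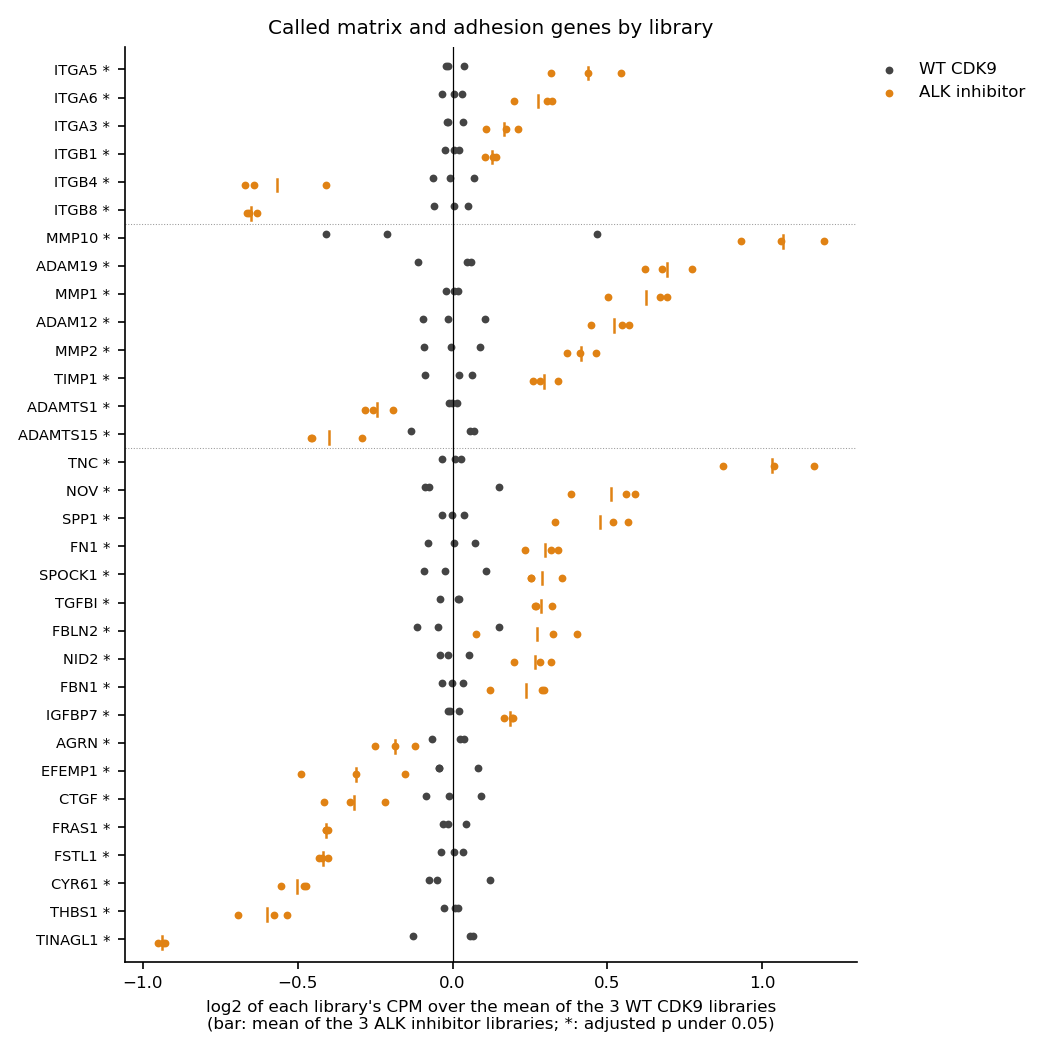
Log2 of the CPM of each library over the mean of the WT CDK9 libraries for the called genes of 3 lists, from top to bottom integrins, metalloproteinases with their inhibitors, and matricellular proteins, with dotted lines between the lists. Treated libraries (orange) lie on both sides of the untreated ones (grey), from -0.94 for TINAGL1 to 1.07 for MMP10, and FBLN2 is the gene shown whose groups overlap.

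Mesenchymal and epithelial genes did not divide cleanly. SNAI2, a zinc finger repressor of epithelial genes, rose from 113 ± 10.1 to 179 ± 8.31 CPM (SD, n = 3) (log2 fold change 0.66 ± 0.06 SE, adjusted p = 6.91e-10 by edgeR). With FN1, VIM and ZEB1 it was called higher among the 23 regulators and markers of epithelial-mesenchymal transition, where no member was called lower by edgeR or DESeq2 and 4 had an unadjusted p under 0.05 on that side. VIM, the gene of vimentin, with a log2 fold change of 0.12, was called in 1 of the 6 fits, the one without WT CDK9 replicate 2 (adjusted p up to 0.0984). ZEB1 was called in 2, those without WT CDK9 replicate 1 or ALK inhibitor replicate 2 (adjusted p up to 0.202). The count for the list was 2 without WT CDK9 replicate 3, ALK inhibitor replicate 1 or ALK inhibitor replicate 3. Of 18 keratins and other intermediate filament genes, 3 were called in each direction, with 1 higher without WT CDK9 replicate 1 or ALK inhibitor replicate 3 and 5 without WT CDK9 replicate 2. Keratins KRT7 and KRT80 had log2 fold changes of -0.35 and -0.43. KRT19 had 0.21, and was not called without WT CDK9 replicate 1 or ALK inhibitor replicate 3 (adjusted p up to 0.191). KRT8 had 1307 ± 62.7 and 1306 ± 32.9 CPM (SD, n = 3) in the 2 groups. The intermediate filament gene NES, nestin, rose from 50.7 ± 2.51 to 73.3 ± 2.66 CPM (SD, n = 3). Of 28 tight junction and desmosome genes, PKP2, CGN and PKP4 were called lower, with log2 fold changes of -0.84, -0.68 and -0.29, and JUP and F11R higher, with 0.31 and 0.44. JUP, the gene of plakoglobin, was not called without ALK inhibitor replicate 2, and F11R, a junctional adhesion molecule, not without WT CDK9 replicate 1, WT CDK9 replicate 3 or ALK inhibitor replicate 3 (adjusted p up to 0.0792). PKP2, a desmosomal plakophilin, had 50.3, 50.7 and 48.9 CPM in WT CDK9 cells and 26.8, 25.7 and 31.1 CPM with the inhibitor. The surface antigens CD24 and FOLR1, both known from ovarian carcinoma, had -0.48 and -0.55. Calcium-binding S100A16 and S100A11 and the annexin ANXA1 had 0.27, 0.26 and 0.18, and ANXA3 had -0.37.

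Receptor tyrosine kinases other than ERBB2 were lower where called. Of 34 tested, 6 were called lower and 1, ERBB2, higher. FGFR2 (ENSG00000066468), a fibroblast growth factor receptor, had 8.82, 9.97 and 9.83 CPM in WT CDK9 cells and 3.42, 4.12 and 4.96 CPM with the inhibitor, the largest fall among them (log2 fold change -1.20 ± 0.19 SE, adjusted p = 4.30e-05 by edgeR). KIT, the stem cell factor receptor, and EPHA4, an ephrin receptor, had log2 fold changes of -0.56 and -0.61. EGFR had -0.15 and was called in 2 of the 6 fits, those without WT CDK9 replicate 2 or ALK inhibitor replicate 2 (adjusted p up to 0.101). Among 31 growth factor ligands, 4 were called lower and 2 higher, with 1 higher without WT CDK9 replicate 1, WT CDK9 replicate 3 or ALK inhibitor replicate 1. PDGFB, a platelet-derived growth factor, fell from 41.9 ± 2.67 to 23.1 ± 2.99 CPM (SD, n = 3). HBEGF, a ligand of EGFR, and NRG1, a ligand of ERBB3 and ERBB4, had -0.57 and -0.28. VEGFC, a lymphangiogenic factor, had 7.70, 8.50 and 7.80 CPM and then 12.5, 12.3 and 13.5 CPM.

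Downstream lists gave no common direction. Of 24 feedback and output genes of the MAPK pathway, 4 were called higher and 2 lower. The count higher was 1 without WT CDK9 replicate 1 and 2 without WT CDK9 replicate 3, ALK inhibitor replicate 1 or ALK inhibitor replicate 3. ETV5, an ETS factor, had 16.5, 17.3 and 15.3 CPM in WT CDK9 cells and 33.5, 22.2 and 28.9 CPM with the inhibitor, and HBEGF and EPHA4 of this list were lower. Of 27 immediate early genes, 4 were called higher, with 2 without WT CDK9 replicate 1 or WT CDK9 replicate 3. JUNB, an AP-1 subunit, rose from 71.3 ± 7.70 to 98.4 ± 4.37 CPM (SD, n = 3), while JUN had a log2 fold change of -0.16 and was not called without WT CDK9 replicate 2 or ALK inhibitor replicate 3 (adjusted p up to 0.191). In the insulin and FOXO list, the adaptors IRS1 and IRS2, which carry the signal of the insulin receptor, had log2 fold changes of -0.40 and -0.51, and TXNIP, an inhibitor of glucose uptake, had 0.38. IRS2 had 78.0, 88.7 and 78.9 CPM in WT CDK9 cells and 60.8, 56.0 and 56.0 CPM with the inhibitor.

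In the TGF-beta and BMP list, 5 of 46 were called higher and 3 lower, and with 1 library left out the counts were 4 or 5 and 2 to 4, not always of the same members. FSTL1, given above, was called lower in each of the 6 fits. SKI, a repressor of SMAD signalling, had -0.18 and was called in 2 of them, and LTBP2, a latent TGF-beta binding protein family member, had 0.30 and was called in 1, the fit without WT CDK9 replicate 2 (adjusted p up to 0.191). SKI kept its call without WT CDK9 replicate 3 or ALK inhibitor replicate 1. PMEPA1, a feedback inhibitor of TGF-beta signalling, LTBP4, which holds latent TGF-beta, and ID1, a target of BMP signalling, had log2 fold changes of 0.32, 0.47 and 0.18. The ligand BMP4 went from 5.18, 4.33 and 5.45 CPM to 2.75, 1.43 and 3.00 CPM, and was not called without ALK inhibitor replicate 2 (adjusted p = 0.0791). HES1, a repressor induced by Notch, had 21.5, 23.1 and 21.4 CPM in WT CDK9 cells and 34.0, 34.0 and 39.9 CPM with the inhibitor. The other called Notch pathway genes, NUMB and JAG1 higher and JAG2 and LFNG lower, each lost their call in 4 or 5 of the 6 fits, and without WT CDK9 replicate 1 or 2 or ALK inhibitor replicate 2 or 3 HES1 alone was left. IL11, an IL6 family cytokine, had 2.00, 1.74 and 3.58 CPM and then 8.16, 6.43 and 6.46 CPM, a log2 fold change of 1.52 ± 0.31 (SE, adjusted p = 0.00191 by edgeR). Of the 34 tested genes of its list of IL6 family cytokines, JAK, STAT and SOCS genes, STAT6 was also called higher, with 0.26. JAK1 was called lower, with -0.13, but in none of the 6 fits that left out 1 library (adjusted p up to 0.251). S1PR1, a receptor for sphingosine 1-phosphate, fell from 71.4 ± 2.30 to 39.0 ± 5.76 CPM (SD, n = 3), and ADGRG1, an adhesion G-protein receptor, rose from 209 ± 8.11 to 296 ± 16.4 CPM (SD, n = 3).

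The cytoskeletal genes held small changes. Of 41 SRF and actin cytoskeleton genes, 6 were called lower and 1 higher, and CNN2, a calponin, had the smallest adjusted p, with 259, 272 and 261 CPM in WT CDK9 cells and 216, 225 and 213 CPM with the inhibitor. The count lower was 3 without WT CDK9 replicate 1 or 3 and 2 without ALK inhibitor replicate 1. TAGLN and TPM1 had log2 fold changes of -0.17 and -0.14 and were not called without ALK inhibitor replicate 1 or, respectively, WT CDK9 replicate 2 and WT CDK9 replicate 3 (adjusted p up to 0.0918).

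In the amino acid and lipid lists most called genes were lower. Of 35 ATF4 amino acid response genes, 5 were called lower and 2 higher, with 1 higher without WT CDK9 replicate 1, WT CDK9 replicate 3 or ALK inhibitor replicate 1. SLC7A5 (ENSG00000103257), the leucine carrier LAT1, had 2902, 3061 and 2812 CPM in WT CDK9 cells and 2152, 2118 and 2068 CPM with the inhibitor (log2 fold change -0.47 ± 0.03 SE, adjusted p = 8.84e-13 by edgeR). Its partner SLC3A2, the arginine carrier SLC7A1 and the serine synthesis enzyme PSAT1 had -0.26, -0.18 and -0.33. The cystine carrier SLC7A11, which also pairs with SLC3A2, had 0.21, so the partners of this shared subunit moved apart. Of 25 fatty acid synthesis genes, FADS3, FASN, ACSL3 and ACACA were called lower and none higher by edgeR or DESeq2, with 1 at an unadjusted p under 0.05 on that side. FASN, fatty acid synthase, had 449, 434 and 391 CPM in WT CDK9 cells and 354, 376 and 340 CPM with the inhibitor, and ACACA, the enzyme before it, was not called without ALK inhibitor replicate 3 (adjusted p = 0.0628). ACAT2, an enzyme at the start of cholesterol synthesis, had a log2 fold change of -0.42. ODC1, the polyamine enzyme ornithine decarboxylase, had -0.30, and MT2A, a metallothionein, -0.33.

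Antioxidant and some hypoxia response genes were higher. Of 31 NRF2 antioxidant genes, 6 were called higher and none lower by edgeR or DESeq2, where 1 gene had an unadjusted p under 0.05. AKR1C1 and AKR1C3, aldo-keto reductases of steroids and aldehydes, had 65.0, 55.7 and 63.2 CPM and 102, 109 and 113 CPM in WT CDK9 cells, and 97.6, 103 and 94.8 CPM and 154, 153 and 151 CPM with the inhibitor. These genes are near-identical copies of each other, so the division of reads between them is uncertain. SLC7A11 and UGDH, a maker of UDP-glucuronate, had log2 fold changes of 0.21 each. ABCC3, an export pump, had 0.24 and was called in 1 of the 6 fits without 1 library, the one without WT CDK9 replicate 1 (adjusted p up to 0.154). HMOX1, heme oxygenase, had 0.49 and was not called without WT CDK9 replicate 2, ALK inhibitor replicate 1 or ALK inhibitor replicate 2 (adjusted p up to 0.0992). Other classical members stayed uncalled, among them TXNRD1 and GCLM with 0.00 and 0.05. The letters of the antioxidant response element, TGACNNNGC with N as any base, were searched within the 250 bases before the transcription start. They lay in 4 of the 22 members with a promoter, 18.2%, against 12.2% of the tested genes with one. These members were GCLM, ME1, PGD and TXNRD1, none of them called. Of 35 hypoxia response genes, 8 were called higher and 3 lower, with 4 higher without WT CDK9 replicate 1. EPAS1, which encodes HIF-2alpha, had 89.8, 96.4 and 88.9 CPM in WT CDK9 cells and 51.4, 40.1 and 39.1 CPM with the inhibitor (log2 fold change -1.07 ± 0.08 SE, adjusted p = 4.41e-11 by edgeR). CITED2, which competes with HIF for its co-activator, fell from 106 ± 4.38 to 72.2 ± 2.75 CPM (SD, n = 3). CA12, a carbonic anhydrase, BHLHE40, a transcriptional repressor, and the glucose carrier SLC2A1 had 0.80, 0.29 and 0.20. ANGPTL4 and DDIT4 had 0.72 and 1.02, and were not called without WT CDK9 replicate 1, WT CDK9 replicate 3 or ALK inhibitor replicate 1 (adjusted p up to 0.236). Of 26 glycolysis genes, SLC2A1, PKM and PDK2 were called higher and none lower by edgeR, where 1 gene had an unadjusted p under 0.05 and DESeq2 called 1. PDK2 was not called without WT CDK9 replicate 2 or ALK inhibitor replicate 3 (adjusted p up to 0.0661).

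Genes for ribosome assembly were lower by small amounts. Of 47 tested, 6 were called lower and none higher, 39 had a log2 fold change below 0 and the median was -0.12. No member had an unadjusted p under 0.05 on the higher side, and DESeq2 called 8 lower and 0 higher. Without ALK inhibitor replicate 2, 3 were called lower. DDX21, a nucleolar helicase, had 298, 276 and 272 CPM in WT CDK9 cells and 247, 220 and 242 CPM with the inhibitor, and NPM1, nucleophosmin, had 919, 904 and 942 CPM and then 792, 838 and 819 CPM. In both genes all treated libraries lay below the untreated ones, with log2 fold changes of -0.25 and -0.17. NOLC1 had -0.28 and was not called without ALK inhibitor replicate 2 (adjusted p = 0.0904). None of the 83 cytosolic ribosomal protein genes was called by edgeR's test, although 70 lay below 0 and 21 had an unadjusted p under 0.05 on that side, where DESeq2 called 5. The heat shock list had 5 of 33 called lower and 1 higher, with 2 or 3 lower in the 5 fits without a library other than WT CDK9 replicate 3. HSP90AA1, the inducible cytosolic chaperone, and CHORDC1, its co-chaperone, had -0.17 and -0.42, and the small chaperone HSPB1 had 0.21. Of 54 G2/M genes, 3 were called lower, among them ANLN, the cytokinesis protein anillin, with -0.18. Of 43 S phase genes, 4 were called lower and 35 lay below 0, and the count was 0 to 2 with 1 library left out, whichever library it was. DOT1L, a histone methyltransferase, and PLK2, a kinase among the p53 target genes, had -0.42 and -0.36.

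The mitochondrially encoded genes show how far 1 library can decide a list. All 15 had a log2 fold change below 0, with a median of -0.26, and 5 were called lower. MT-ND1, a subunit of complex I, had 1103, 746 and 1079 CPM in WT CDK9 cells and 661, 804 and 772 CPM with the inhibitor, so WT CDK9 replicate 2 lay among the treated libraries. The share of all counts on mitochondrial genes was 2.41%, 1.73% and 2.46% in WT CDK9 cells and 1.74%, 1.96% and 1.98% with the inhibitor, with the same library apart. Without WT CDK9 replicate 2, 13 of the 15 were called lower. Without WT CDK9 replicate 1, WT CDK9 replicate 3 or ALK inhibitor replicate 1, none was, without ALK inhibitor replicate 2 the count was 1, and without ALK inhibitor replicate 3 it was 2. DESeq2 called none on all libraries, and 13 had an unadjusted p under 0.05 by edgeR.

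Several large families had no called gene by edgeR, among them those closest to CDK9. Over all tested genes, 1.82% were called higher and 2.73% lower. These shares leave few calls to a list of 25 to 86 genes, so 0 calls does not set these families apart. Among 32 genes of P-TEFb, its 7SK brake and its partners, 3 had an unadjusted p under 0.05, all higher. HEXIM1, the P-TEFb inhibitor whose level is known to follow P-TEFb activity, had 168 ± 3.30 CPM in WT CDK9 cells and 179 ± 11.3 CPM with the inhibitor (SD, n = 3), a log2 fold change of 0.09 (adjusted p = 0.409), and the cyclin CCNT1 had 0.05 (adjusted p = 0.801). Both genes were chosen for their part in P-TEFb after their values were seen. Among 86 genes of RNA polymerase II, its general factors and Mediator, 2 had an unadjusted p under 0.05, both higher. The nuclear-encoded respiratory chain (83 genes), mitochondrial ribosomal proteins (77), proteasome (46), aminoacyl-tRNA synthetases (34), histones (31) and the tricarboxylic acid cycle (25) had no call, with between 0 and 6 genes at an unadjusted p under 0.05 in each direction. DESeq2 called 1 proteasome gene lower and none in the other lists of this paragraph so far. Of 62 lysosomal genes 48 lay above 0, and of 42 autophagy genes 31 did, against 8123 of all 16350 tested genes, but in these lists 2 genes each were called higher and 2 lysosomal genes lower. Without WT CDK9 replicate 2 each of these counts was 1, and without WT CDK9 replicate 3 there were 5 lysosomal genes higher. Solute carriers, at 242 tested, had 6 called in each direction, 2.48%, near the shares of all tested genes. Of 47 SR proteins and hnRNP splicing regulators, 4 (8.51%) were called lower and 0 higher, where 8.79% of all genes over 100 CPM were called lower. Of 65 translation initiation and elongation factors, 3 (4.62%) were called lower and 1 (1.54%) higher.

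Some called genes lay side by side on a chromosome. Of the 11103 genes that averaged 5 CPM or more, 2.59% were called higher and 3.82% lower, and 9 runs of at least 3 neighbours called in the same direction were found. These regions were singled out after their values were seen. On chromosome 17, from 39626740 to 39730787 in the positions of the deposited table (hg38), PPP1R1B, STARD3, PGAP3, ERBB2 and MIEN1 were 5 neighbours called higher, with log2 fold changes of 1.03, 0.34, 0.24, 0.54 and 0.55. Of the fits that left out 1 library, PGAP3 was called in 2, those without WT CDK9 replicate 2 or ALK inhibitor replicate 1 (adjusted p up to 0.241). Within 1000000 bases of ERBB2, 35 genes averaged 5 CPM or more, and none of the others among them was called. These included MED1 and CDK12 before the run, with -0.07 and 0.05, and GRB7 and ORMDL3 after it, with -0.14 and 0.06. MIEN1 had 192, 202 and 203 CPM in WT CDK9 cells and 277, 290 and 306 CPM with the inhibitor. It lies from 39728496 to 39730787 on the minus strand, mostly inside the plus-strand span of ERBB2, which ends at 39730426. PGAP3, on the minus strand up to 39696797, overlaps the start of ERBB2 at 39687914. Without a known strand setting, reads in these overlaps cannot be told apart from those of ERBB2. Whether MIEN1 and PGAP3 rose separately was not tested. In Tyr19Phe CDK9 cells, against the same WT CDK9 libraries, ERBB2, MIEN1 and PGAP3 had log2 fold changes of -0.29, -0.44 and -0.33 (adjusted p up to 8.1e-04 by edgeR), while STARD3 and PPP1R1B had 0.10 and -0.15 and were not called (adjusted p = 0.173 and 0.208).

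**Figure D5:**
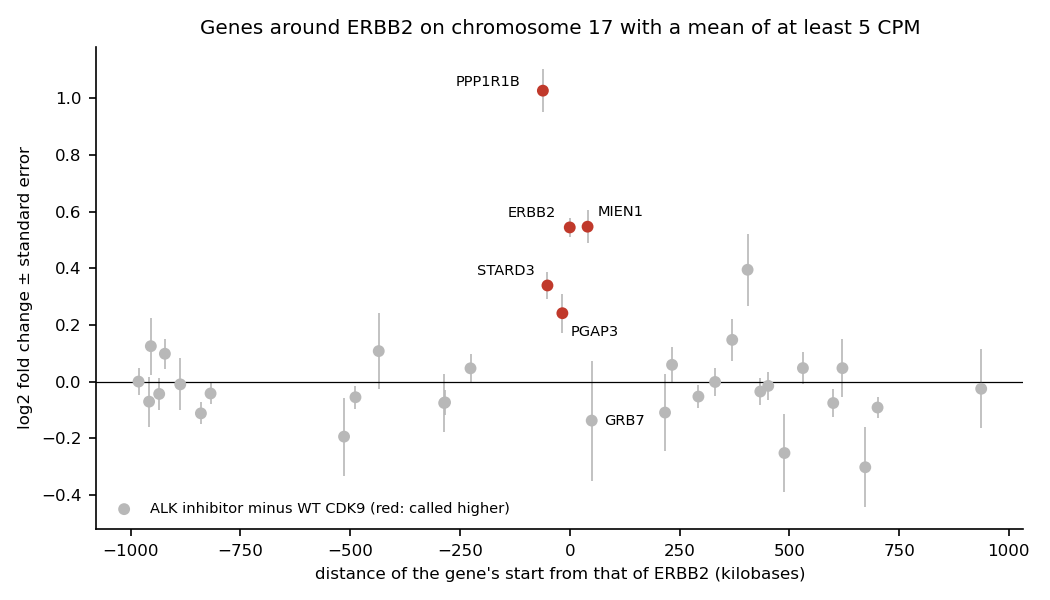
Log2 fold change (ALK inhibitor minus WT CDK9, with its standard error) against the distance of each gene's start from that of ERBB2 in kilobases. Drawn are the 35 genes within 1000000 bases of ERBB2 that averaged 5 CPM or more. The 5 genes called higher (red) lie next to each other among the genes drawn, at 0.24 to 1.03. They start between 61.2 kilobases before the start of ERBB2 and 40.6 kilobases after it. MIEN1 and PGAP3 overlap ERBB2 on the other strand.

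On chromosome 19, zinc finger genes lay in such runs. Over the whole family the share was near that of all genes: 11 of 468 tested ZNF genes, 2.35%, were called lower, against 2.73% of all tested genes, and 1 higher. From 21020620 to 21379302 the 5 neighbours ZNF430, ZNF714, ZNF431, ZNF708 and ZNF738 were called lower, with log2 fold changes of -0.66, -0.47, -0.84, -0.45 and -0.42. From 21444241 to 21767628 they were followed by AC010615.2, LINC00664, ZNF429 and ZNF100, with -0.52, -0.97, -0.60 and -0.64. Of these genes, ZNF429 was not called without ALK inhibitor replicate 1, and ZNF708 and ZNF738 were called in 2 and 1 of the 6 fits without 1 library (adjusted p up to 0.226). AC010615.1 and ZNF493, which lie between these runs, had -0.56 and -0.36 and were not called. Outside them, ZNF85 before them and ZNF43 after them had -0.03 and -0.23 and were not called. ZNF431 had 101, 104 and 112 CPM in WT CDK9 cells and 56.2, 62.4 and 58.5 CPM with the inhibitor. In Tyr19Phe CDK9 cells, against the same WT CDK9 libraries, ZNF430, ZNF714, ZNF431, LINC00664, ZNF429 and ZNF100 were also called lower, with log2 fold changes of -0.54, -0.25, -0.72, -0.41, -0.46 and -0.50, and ZNF708, ZNF738 and AC010615.2 had -0.15, -0.09 and -0.17 and were not called. The genes of these runs were picked as lower than the same WT CDK9 libraries, so the comparisons are not independent. Zinc finger genes of this kind share sequence, and the sources used here do not say how reads that map to several genes were counted. On chromosome 7, from 93885396 to 94004382, TFPI2, GNG11 and BET1 were neighbours called higher, with 0.62, 0.64 and 0.43, and BET1 lost its call in each fit without 1 library other than WT CDK9 replicate 2 (adjusted p up to 0.168).

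The groups of treated WT CDK9 cells and Tyr19Phe CDK9 cells were compared directly for the 24 genes with the smallest adjusted p, 12 per direction. For 22 of them, the difference between these groups had an adjusted p under 0.05 in the same fit, and the number was 18 to 22 with any of the 9 libraries left out. Of all 16350 tested genes, 20.7% differed between these groups by the same rule. The 24 genes were picked for their difference from WT CDK9 cells in the same ALK inhibitor libraries, so their share is a description. The exceptions were ANPEP, an aminopeptidase of the cell surface, and GFRA1. ANPEP had 114, 111 and 115 CPM in WT CDK9 cells, 231, 211 and 214 CPM with the inhibitor and 207, 220 and 215 CPM in Tyr19Phe CDK9 cells. TNC, with 67.7 ± 6.86 CPM (SD, n = 3) with the inhibitor, had 34.7 ± 3.23 CPM (SD, n = 3) in Tyr19Phe CDK9 cells. EPAS1 had 43.5 ± 6.82 and 84.4 ± 6.85 CPM (SD, n = 3) in the same order.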

How the data were processed

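RNA-seq gene counts of 9 SKOV3 libraries were used, 6 of them in the comparison described. The authors deposited a table of raw read counts per gene (hg38), which were used as deposited. Their processing notes name CASAVA, HISAT2 2.0.5 and featureCounts 1.5.0-p3, without roles. The annotation release, the strand setting and the treatment of reads that map to several genes are not given in the sources used here. Total counts ranged from 18169050 to 20974903 in the 6 libraries, and counting error falls as counts rise.

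Counts of all 9 libraries were fitted together with edgeR 4.0.16 (R 4.3.3) by TMM scaling and the quasi-likelihood test, after filterByExpr (minimum count 10, minimum total 15), which left 16350 of 58735 genes. Genes were called at a Benjamini-Hochberg adjusted p under 0.05 over all tested genes. The members and the gene lists were chosen with earlier results of these data known. Genes were named by rule: in each direction the 12 genes of smallest adjusted p and the 12 of largest log2 fold change (called, mean of at least 1 CPM, groups not overlapping), up to 5 called members per list and direction, and CDK9 and ALK. Further genes are said to have been chosen after their values were seen or are given as uncalled members of a list. DESeq2 1.42.0, other scalings, filters, a length and GC trend (mgcv 1.9.3), the replicate number as a block and leaving out each library were alternatives. The fit was tested on simulated counts. Some genes and lists are not reported here.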

Additional observations from a re-analysis of the deposited data

How the results depend on the processing

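The numbers of genes called higher and lower, 297 and 447, became 167 and 260 at an adjusted p under 0.01 and 1129 and 1344 at an unadjusted p under 0.05. With 1 library left out they ranged from 198 to 249 and from 293 to 363, the lowest of both without WT CDK9 replicate 1; fewer samples were then fitted. DESeq2 gave 362 and 481, library size scaling 406 and 344, and the 6 compared libraries alone 306 and 435. Same-numbered libraries of the 2 groups did not deviate together (correlations -0.0091, -0.0116 and -0.0085), and pairs of different number had -0.00714 to 0.0162. These correlations run over all tested genes, many with few counts, so they cannot exclude a shared batch. With the replicate number as a block, 324 and 494 genes were called. The medians of the YAP and TAZ, ribosome biogenesis and mitochondrially encoded lists moved by less than the spread between libraries under every alternative run. These lists were settled on after many other medians near 0 were seen to move. The spread was each list's own, and WT CDK9 replicate 2 widened it for the mitochondrially encoded list, so a small move there says little. Of the 87 list medians, many of them near 0, 40 moved by more than their spread between libraries under library size scaling and 19 to 24 with 1 library left out. Of the 297 genes named by rule, 65 to 97 lost their call with 1 library left out, 30 under library size scaling and 8 with DESeq2, and none reversed. The direct difference from Tyr19Phe CDK9 cells, whose alternatives were chosen after seeing the data, held for 18 to 22 of 24 genes. Genes under 1 CPM were too shallow for most changes to be detectable.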

Other observations

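Some called genes had groups that overlapped, and share sequence with other copies. BOLA2B, a gene with a near-identical copy, had 0.872, 0.686 and 24.4 CPM in WT CDK9 cells and 1.57, 0.604 and 0.310 CPM with the ALK inhibitor, and was called lower although the groups overlapped. The pseudogene TCEA1P2 had 33.8, 34.4 and 6.25 CPM and then 4.46, 17.5 and 6.51 CPM. Of the WT CDK9 libraries, replicate 3 alone was high for BOLA2B and alone was low for TCEA1P2. Whether these calls held with 1 library left out is not given here. CLIC5, a chloride channel family member, had between 8 and 19 counts in the WT CDK9 libraries and 0 in all 3 ALK inhibitor libraries, at least 4.03-fold lower against a floor of 3 counts per library (0.165 CPM). KRT7-AS fell beside KRT7, whose reads it cannot be told apart from without a known strand setting.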
